A study of Homo sapiens with 6 samples.

Results

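Respiratory complex I (NADH:ubiquinone oxidoreductase) was described through the genes whose symbols begin with NDUF or MT-ND in the deposited gene table. This gave 54 of the 11844 listed genes, and all 54 passed the filter on low values. By role they were 7 nuclear genes for core subunits, 30 nuclear genes for accessory subunits, 8 nuclear genes for assembly factors (NDUFAF1 to NDUFAF8), the 7 core subunit genes of the mitochondrial genome, and 2 genes with NDUF names that are not counted as complex I subunits today (NDUFA4 and NDUFA4L2). RNA came from C4-2B, an LNCaP-derived human prostate cancer cell line, grown in RPMI1640 with 10% FBS. Stable sublines carried either pcDNA 3.1 alone (empty vector, 3 libraries) or pcDNA 3.1 with LINC00888, a long noncoding RNA (3 libraries), and the comparison addresses which RNAs change upon forced LINC00888 expression. The labels give a LINC00888 level by quantitative PCR of 15.27 ± 2.4 times (SD) that of the controls; the sequenced LINC00888 RNA was not analysed here.

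Whether the replicate libraries stem from different cultures, and how many sublines they represent, is not told by the labels. All p-values therefore measure the spread between these libraries, and other differences between sublines cannot be told apart from LINC00888. Values are FPKM (fragments scaled to model length and to the number mapped), which sum to 211148 to 217637 per library over the listed genes; the tables hold no counts, so depth is unknown. Of the luminal prostate markers, 9 of 9 were listed, with a summed level of 1258 to 1267 FPKM with the empty vector and 1255 to 1272 FPKM with LINC00888, and 2 rose and 4 fell. Markers of other cells were low: 1 of 4 leukocyte, 2 of 4 fibroblast, 1 of 3 endothelial, 0 of 3 neuroendocrine and 1 of 3 basal markers were listed, and none of these lists summed to more than 3.87 FPKM in any library. Of these markers 1 rose, the fibroblast marker PDGFRB, from 0.308 to 0.65 FPKM (adjusted p = 0.0372), and 0 fell. PDGFRB was under 0.5 FPKM in every empty vector library and passed the filter on low values only through the LINC00888 libraries. Its adjusted p is therefore not independent evidence of a rise. In bulk RNA, fewer cells of a kind and less RNA per cell cannot be told apart.

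Complex I is the entry point of the respiratory chain. Its matrix arm oxidises NADH and passes the electrons along iron-sulfur clusters to ubiquinone, and its membrane arm, whose core is encoded by the mitochondrial genome, pumps protons. Accessory subunits surround the core and stabilise it, and assembly factors join the modules without staying in the finished enzyme.

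Some mitochondrial members differ from the nuclear ones in how their messages end, which bears on what a poly(A)-selected library captures. The last 15 bases of each MT-ND gene entry are shown 5′ to 3′, with the encoded bases of the stop codon in capitals. Each entry ends with its stop codon, which need not be the end of the messenger, as for MT-ND4L below. They are from GENCODE 29 on GRCh38, where all 7 genes have the same start and end as in the deposited table.
MT-ND1 (chrM:4248-4262, +): tccccctcaaaccTA
MT-ND2 (chrM:5497-5511, +): tactaataatcttaT
MT-ND3 (chrM:10390-10404, +): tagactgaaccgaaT
MT-ND4 (chrM:12123-12137, +): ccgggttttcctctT
MT-ND4L (chrM:10752-10766, +): ctactccaatgcTAA
MT-ND5 (chrM:14134-14148, +): ctcctaatcacaTAA
MT-ND6 (chrM:14149-14163, -): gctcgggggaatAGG
In 4 of the 7, the genome encodes only T or TA of the stop codon, and the poly(A) tail supplies the rest. MT-ND6 is the only one on the other strand, and its messenger is known as the one mitochondrial messenger without a stable poly(A) tail, so these libraries need not reflect its abundance.

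MT-ND4L and MT-ND4 sit on 1 shared messenger and overlap by 7 bases, in capitals in the end of MT-ND4L and in the start of MT-ND4 below, so fragments across the junction cannot be given to either gene alone.
MT-ND4L, last 30 bases (chrM:10737-10766, +): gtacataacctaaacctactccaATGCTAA
MT-ND4, first 30 bases (chrM:10760-10789, +): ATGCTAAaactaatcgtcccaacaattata
Nuclear copies are a second limit on these genes. By name, GENCODE 29 holds 215 pseudogenes of the MT-ND genes, among 274 in all for 26 of the 54 members, and the counting rule for fragments that match several places is not given in the sources used here.

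Few complex I genes passed the threshold. Of the 54 members, 1 rose (NDUFC2) and 2 fell (NDUFB10 and NDUFB4), all accessory subunits, at an adjusted p under 0.05 in limma over all 11726 tested genes. That is 5.56% of the members, against 13.5% of all tested genes, of which 8.02% rose and 5.46% fell. With the replicate number as a block the same 3 members were called, against 3.66% of all tested genes. Which of the 2 shares was higher therefore depended on the fit. The libraries of the 2 groups did not overlap for 15 members, 6 higher and 9 lower with LINC00888, whereas 38.3% of all genes did not overlap (23.5% higher, 14.8% lower). At an unadjusted p under 0.05 there were 12 of 54 members, against 31.2% of all genes. The median log2 fold change on the log2(FPKM + 0.5) scale was -0.02 over the members and 0.03 over all genes. Nuclear-encoded subunits of complexes II to V gave 0 calls by limma among 40 genes, with 3 at an unadjusted p under 0.05 and a median of -0.04. The 6 other mitochondrially encoded genes gave 0 calls, with 1 at an unadjusted p under 0.05 and a median of 0.06.

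The plot of fold changes by class shows how narrow the range was. On the log2(FPKM + 0.5) scale, the largest difference in either direction was that of NDUFB10, at -0.38. By the ratio of group means NDUFA4L2 was further apart, at 0.74 against 0.767 for NDUFB10. The class medians were 0.06 for both the nuclear and the mitochondrial core, -0.04 for the accessory subunits and -0.10 for the assembly factors. The accessory median turned to 0.00 on the positive side under quantile normalization, and the nuclear core median turned to -0.04 when genes were valued as the sum of their transcripts.

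Of the mitochondrially encoded core subunits, 6 were the most abundant members and MT-ND6 ranked below NDUFS5, and 0 of the 7 passed the threshold in limma, with 2 (MT-ND5 and MT-ND6) at an unadjusted p under 0.05. MT-ND5, which forms the outermost of the proton-pumping channels, had 1216, 1121 and 1311 FPKM with the empty vector and 1336, 1367 and 1398 FPKM with LINC00888. It was the one MT-ND gene whose groups did not overlap, with a log2 fold change of 0.17 (SE 0.0604, limma adjusted p = 0.113). MT-ND6, which lies in the proximal membrane arm, had 221, 270 and 233 FPKM with the empty vector and 221, 197 and 204 FPKM with LINC00888. The lowest empty vector library and the highest LINC00888 library met, and the log2 fold change was -0.21 (SE 0.085, adjusted p = 0.149).

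The other 5 MT-ND genes overlapped between the groups. MT-ND4, another proton-pumping subunit, was the highest member, at 3929 ± 112 FPKM with the empty vector and 4094 ± 204 FPKM with LINC00888 (SD, n = 3 each). MT-ND4L, a small subunit of the membrane arm that shares the messenger of MT-ND4, had 2755 ± 237 and 2912 ± 116 FPKM. MT-ND3, whose loop reaches the ubiquinone cavity, had 892 ± 56.1 and 962 ± 86.5 FPKM. These 3 had positive log2 fold changes of 0.06, 0.08 and 0.11. MT-ND1, which closes the ubiquinone cavity, had 2056 ± 56.8 and 2026 ± 98.8 FPKM. MT-ND2, the proton-pumping subunit nearest to it on the genome, had 1712 ± 74.2 and 1686 ± 77.8 FPKM. Both had a log2 fold change of -0.02, which turned positive under cyclic loess and with FPKM rescaled to the nuclear sum. For MT-ND4, the 95% interval of the log2 fold change ran from -0.05 to 0.17, so differences of that size were within the error. Quantile normalization gives each rank the same value in every library, so a gene that holds its rank shows no difference by construction. It took MT-ND4, MT-ND4L and MT-ND5 to 0, but not MT-ND3.

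**Figure D1:**
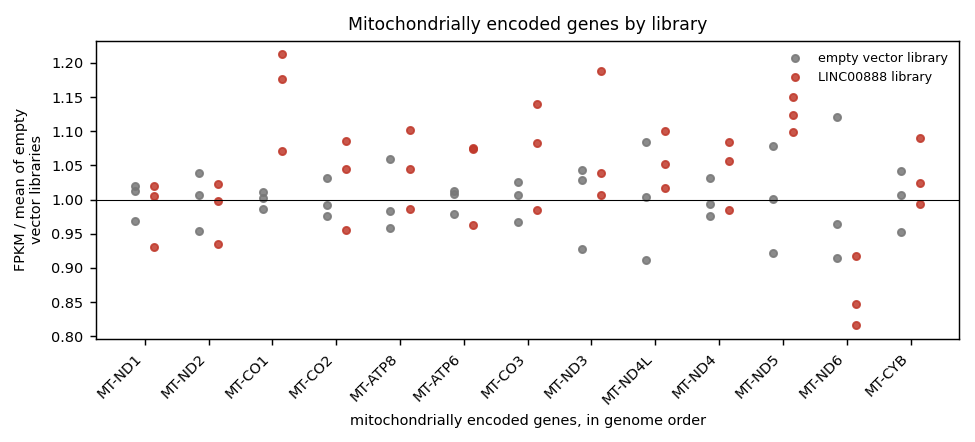
FPKM of each mitochondrially encoded gene in each library, divided by the mean of the empty vector libraries, in genome order (grey, empty vector; red, LINC00888; 3 libraries each). MT-ND5 and MT-CO1 have all LINC00888 libraries above the empty vector libraries, and for MT-ND6 they lie at the low end of the empty vector range or below it.

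The listed mitochondrially encoded genes were the 7 MT-ND genes and 6 others of the MT-CO, MT-CYB and MT-ATP groups. Of their summed FPKM, complex I made up 33.3%, 32.6% and 33.7% with the empty vector and 32.6%, 32.6% and 32.2% with LINC00888. FPKM is scaled to length, so these are not shares of RNA mass. The groups overlapped. Within that sum the shares of 3 members were lower in every LINC00888 library. MT-ND1 went from 5.33% ± 0.065 to 4.96% ± 0.0918, MT-ND2 from 4.44% ± 0.0739 to 4.13% ± 0.0555 and MT-ND6 from 0.626% ± 0.0665 to 0.51% ± 0.0528 (SD, n = 3). The shares of MT-ND3, MT-ND4, MT-ND4L and MT-ND5 overlapped. Shares sum to a fixed whole, and beside them stands MT-CO1, the catalytic subunit of complex IV, with 6043 FPKM against 6969 FPKM (adjusted p = 0.0506). The plot by library shows this spread across the mitochondrial genome, with MT-CO1 and MT-ND5 at the top and MT-ND6 at the bottom.

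The 2 genomes were also compared by their summed levels, without a test. The summed FPKM of the 7 MT-ND genes was 7.02, 6.55 and 7.42 times that of the 37 nuclear-encoded subunits with the empty vector. With LINC00888 it was 7.45, 7.43 and 7.63 times, so the groups did not overlap, by a narrow gap. All listed mitochondrially encoded genes together took 17.59%, 17.71% and 18.35% of the listed FPKM with the empty vector and 18.38%, 18.91% and 19.72% with LINC00888. The MT-ND share alone, 5.94% ± 0.218 against 6.17% ± 0.179, overlapped. The summed nuclear-encoded subunits, 1832 ± 72.6 against 1767 ± 60.6 FPKM, overlapped as well.

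Among the nuclear core subunits 0 of 7 passed the threshold in limma, and 0 had an unadjusted p under 0.05. NDUFV1, which holds the flavin that takes electrons from NADH, was the nearest to it. It had 22.4, 25.1 and 24.1 FPKM with the empty vector and 27.4, 25.9 and 25.3 FPKM with LINC00888. All LINC00888 libraries were higher, with a log2 fold change of 0.13 (SE 0.0549, adjusted p = 0.161). NDUFS8, an iron-sulfur subunit that leads to the ubiquinone site, had 13.1, 12.7 and 12.5 FPKM against 11.5, 12.4 and 10.8 FPKM. All its LINC00888 libraries were lower, with a log2 fold change of -0.14 (adjusted p = 0.163).

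Other core subunits lay closer together. NDUFS1, the largest iron-sulfur subunit of the NADH-oxidising module, had 11.6 ± 0.194 and 12.2 ± 0.242 FPKM without overlap (adjusted p = 0.28). NDUFV2, its neighbour in that module and the most abundant nuclear core gene, had 81.1 ± 7.03 and 76.1 ± 1.88 FPKM. NDUFS7 carries the last iron-sulfur cluster before ubiquinone and was the lowest of the class, at 7.67 ± 0.169 and 8.02 ± 0.311 FPKM. NDUFS3, a core subunit of the matrix arm, had 15.5 ± 0.603 and 15 ± 0.846 FPKM. NDUFV2, NDUFS7 and NDUFS3 overlapped between the groups.

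All 3 members past the threshold were accessory subunits of the membrane arm. NDUFB10, a subunit with cysteines oxidised on the intermembrane-space side, lies at chr16:2009509-2011976 (+) in the coordinates of the deposited table. It had 115, 117 and 116 FPKM with the empty vector and 84.6, 94.2 and 88.0 FPKM with LINC00888. The groups were far apart relative to their spread, and NDUFB10 fell to 0.767 of its empty vector level, a log2 fold change of -0.38 (SE 0.0451, adjusted p = 0.00719). The fall passed the threshold without each of the 6 libraries in turn (adjusted p from 0.0126 to 0.0316) and under all 11 other settings.

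NDUFB4, a subunit toward the distal end of the membrane arm, lies at chr3:120315156-120321347 (+). It had 81.9, 83.4 and 84.8 FPKM with the empty vector and 67.3, 66.1 and 73.4 FPKM with LINC00888. No library of one group reached the other, and NDUFB4 fell to 0.826 of its empty vector level (log2 fold change -0.27, SE 0.0471, adjusted p = 0.0179). The call was lost without empty vector library 2 (adjusted p = 0.0527) or 3 (0.0643), without LINC00888 library 1 (0.0647) or 2 (0.0564), and when the gene was valued as the sum of its transcripts (0.0502). GENCODE 29 names 12 pseudogene copies of NDUFB4 and 2 of NDUFB10.

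NDUFC2, a subunit of the part of the membrane arm built around MT-ND2, lies at chr11:77779350-77791265 (-). It had 21.4, 22.5 and 23.3 FPKM with the empty vector and 26.1, 29.02 and 28.7 FPKM with LINC00888. Every LINC00888 library was higher, and NDUFC2 rose to 1.247 times its empty vector level (log2 fold change 0.31, SE 0.0557, adjusted p = 0.0201). The call was lost without empty vector library 1 (adjusted p = 0.0566) or 2 (0.055), without LINC00888 library 2 (0.0653) or 3 (0.0664), and with the sum of transcripts (0.274). NDUFC2 overlaps a readthrough gene with KCTD14 on the same strand and THRSP on the other. THRSP rose from 1.34 to 2.19 FPKM (adjusted p = 0.0238). The library kit keeps the strand by the labels, but whether the counting used it is not given in the sources used here.

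**Figure D2:**
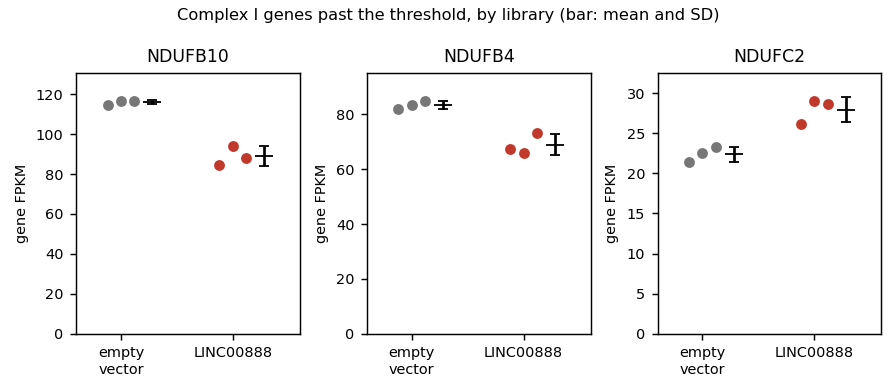
Gene FPKM by library of the 3 members past the threshold (grey, empty vector; red, LINC00888; bars are the mean and SD of 3 libraries, axes start at 0). The groups are separate in each panel, at 116 against 89.0 FPKM for NDUFB10, 83.4 against 68.9 FPKM for NDUFB4 and 22.4 against 27.9 FPKM for NDUFC2.

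The plot by library of the changed members shows that each difference was below 1.5-fold. Just outside the threshold lay other subunits of the same arm. NDUFB9, a subunit of the LYR family, had 42.6, 45.6 and 42.5 FPKM with the empty vector and 32.6, 40.9 and 30.9 FPKM with LINC00888. LINC00888 library 2 stood between the groups. The log2 fold change was -0.33 with all libraries (SE 0.107, adjusted p = 0.0966) and -0.45 without that library (adjusted p = 0.0207). Of the 6 fits with 1 library left out, only that 1 called NDUFB9 (adjusted p up to 0.239), and 0 of the 11 other settings did. NDUFB11, another membrane arm subunit and one chosen after its values were seen, had 51.4 ± 1.31 and 44.9 ± 3.6 FPKM without overlap (adjusted p = 0.0899). NDUFA10, a subunit with a nucleoside kinase fold, was the nearest to the threshold and one of the lowest of the class. Its FPKM was 8.38, 8.23 and 8.88 with the empty vector and 9.68, 9.59 and 9.24 with LINC00888, all higher (log2 fold change 0.15, adjusted p = 0.0877).

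The remaining accessory subunits overlapped between the groups. NDUFS5, which faces the intermembrane space, was the most abundant nuclear member, at 322 ± 14.5 and 331 ± 17.8 FPKM. NDUFB7, which faces the same side, followed at 153 ± 3.53 and 149 ± 10.4 FPKM. NDUFV3, a small subunit of the NADH-oxidising module, was near the low end at 9.04 ± 0.399 and 9.42 ± 0.879 FPKM. NDUFA2, a subunit with a thioredoxin-like fold, had the largest positive estimate after NDUFC2, with a wide spread in both groups. Its libraries had 28.2, 31.7 and 37.8 FPKM with the empty vector and 32.9, 36.9 and 46.1 FPKM with LINC00888 (log2 fold change 0.24, SE 0.159, adjusted p = 0.363). Over the whole class 11 estimates were positive and 19 negative, and the sums were 1597 to 1711 FPKM with the empty vector against 1507 to 1620 FPKM with LINC00888.

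Of the members past the threshold, NDUFC2, which rose, had no entry among the promoters used here. The promoter windows of the others, NDUFB10 and NDUFB4, which fell, are shown. Each holds 250 bases before and 50 after the start given by RefSeq on GRCh38.p14, with matches to 5 motifs in capitals. The motifs, searched on both strands, were NRF1 (GCGCA and GCGC with 1 base of any kind between them), ETS (CCGGAAG), YY1 (AAGATGGCG), SP/KLF (GGGCGG) and a TATA box (TATAAA).
NDUFB10 (chr16:1959288-1959587, +): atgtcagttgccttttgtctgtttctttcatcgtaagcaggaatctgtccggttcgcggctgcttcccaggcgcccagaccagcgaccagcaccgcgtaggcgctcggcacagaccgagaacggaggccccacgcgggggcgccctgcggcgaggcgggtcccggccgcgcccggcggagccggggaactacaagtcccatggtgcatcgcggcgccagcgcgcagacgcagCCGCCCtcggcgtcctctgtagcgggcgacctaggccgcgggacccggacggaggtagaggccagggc
NDUFB4 (chr3:120596086-120596385, +): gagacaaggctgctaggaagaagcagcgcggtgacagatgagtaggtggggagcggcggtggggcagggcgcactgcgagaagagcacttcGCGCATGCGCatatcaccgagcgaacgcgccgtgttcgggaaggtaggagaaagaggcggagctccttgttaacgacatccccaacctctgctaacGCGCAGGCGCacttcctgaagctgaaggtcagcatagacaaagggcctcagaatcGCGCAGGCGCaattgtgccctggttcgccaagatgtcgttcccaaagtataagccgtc
The NDUFB4 window has 3 NRF1 matches, which start 159, 63 and 8 bases before the gene start, and no other match. The NDUFB10 window has 1 SP/KLF match, 18 bases before the start, and no NRF1 match. They share none of the 5 motifs.

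Promoter windows were matched for 39 of the nuclear members, some with several windows, and a gene counted once if any window matched. NRF1, named for nuclear respiratory factor 1, matched in 7 (17.9%), against 6.98% of all 27305 genes and 9.67% of the 15843 protein-coding ones. YY1 also matched in 7, against 2.14% of all genes and 3.21% of protein-coding ones. ETS matched in 7 as well, against 12.2% and 16.5%, and SP/KLF in 25 (64.1%), against 48.3% and 64.3%. The TATA box matched in 3 (7.69%), against 14.0% and 12.4%. A match is a string of letters in the window, and binding was not measured.

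Genes beside the changed members were looked at after their values were seen. Within 1 Mb of NDUFB10 in the coordinates of the deposited table there were 59 tested genes. Of these 15 fell and 2 rose, where 5.46% of all tested genes fell and 8.02% rose. A negative estimate was found for 71.2% of them, against 42.9% of all tested genes, and the median log2 fold change was -0.12. Its neighbours on either side both fell: MSRB1, a methionine sulfoxide reductase, from 11.4 to 7.99 FPKM (adjusted p = 0.00728), and RPS2, a ribosomal protein, from 417 to 358 FPKM (adjusted p = 0.0191). NDUFAB1, the mitochondrial acyl carrier protein and another member on chromosome 16, had 9 such neighbours, of which 0 rose and 1 fell, and its own log2 fold change was -0.08. Around NDUFB4, 2 of 11 neighbours fell and 0 rose, 72.7% had a negative estimate, and the median was -0.08. Around NDUFC2, 1 of 12 rose, near the 8.02% of all tested genes, 0 fell and 0 had a negative estimate, with a median of 0.15. The part of the neighbourhood in the changes of the members was not tested.

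**Figure D3:**
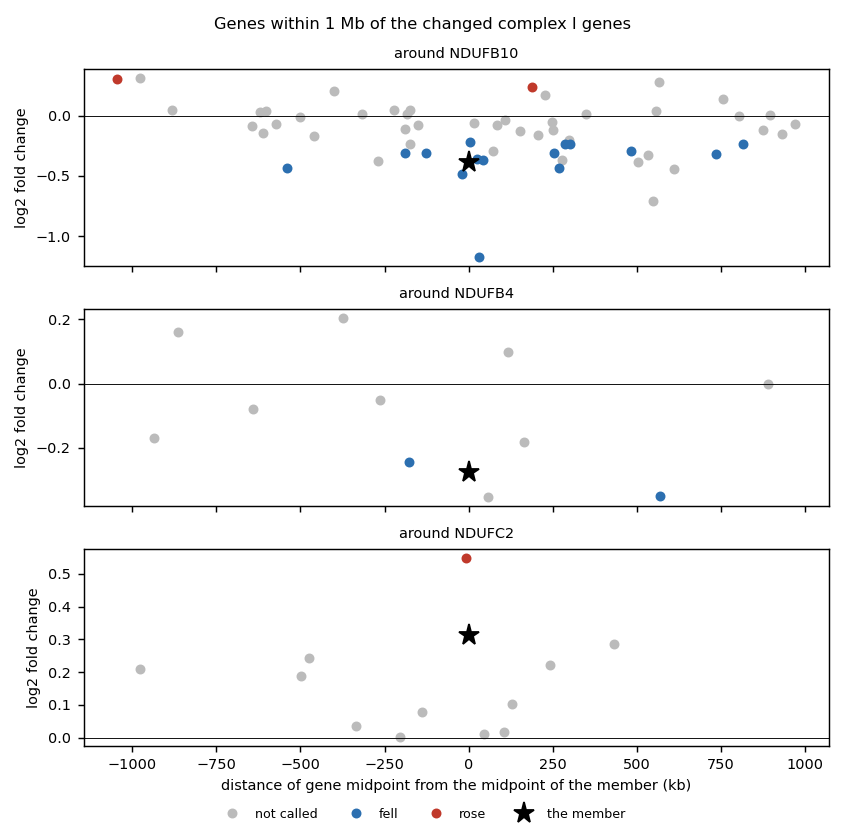
Log2 fold change (log2(FPKM + 0.5) scale) of tested genes within 1 Mb of each changed member, by the distance of gene midpoints in kb; the star is the member, blue points fell, red points rose, grey points did not pass the threshold. Most points around NDUFB10 lie below 0, and those around NDUFC2 all lie above it.

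The map of neighbours shows NDUFB10 lower than the median of its neighbours, of which 42 of 59 had a negative estimate. The panel for NDUFB4 holds few genes, of which 8 of 11 had a negative estimate.

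No assembly factor passed the threshold: limma called 0 of 8, with 4 at an unadjusted p under 0.05. NDUFAF4, which helps build the module around the ubiquinone site, was the nearest, with 10.3, 12.3 and 11.8 FPKM with the empty vector and 8.62, 9.68 and 9.63 FPKM with LINC00888. The groups did not overlap, and the log2 fold change was -0.28 (SE 0.0816, adjusted p = 0.0692), or -0.36 without empty vector library 1 (adjusted p = 0.0467). Of the 6 fits with 1 library left out, only that 1 called NDUFAF4 (adjusted p up to 0.18), and 0 of the 11 other settings did. NDUFAF8, known as a partner that stabilises NDUFAF5, had 30.6, 27.99 and 30.3 FPKM against 27.4, 26.9 and 26.2 FPKM. It was lower in every LINC00888 library (log2 fold change -0.14, adjusted p = 0.0953), and passed under median ratio scaling (adjusted p = 0.0459). That was the 1 of 11 other settings to call NDUFAF8, and 0 of the 6 fits with 1 library left out did.

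NDUFAF1, a member of the complex that assembles the inner membrane arm, had 16.8 ± 1.72 and 14.6 ± 0.269 FPKM without overlap (adjusted p = 0.132). NDUFAF5, which hydroxylates an arginine of NDUFS7, was the lowest of the class at 2.03 ± 0.189 and 1.79 ± 0.0917 FPKM, also without overlap (adjusted p = 0.267). NDUFAF7, a protein arginine methyltransferase, was the one with a positive estimate, at 3.52 ± 0.202 and 4.08 ± 0.313 FPKM without overlap (adjusted p = 0.145). The 3 others overlapped. NDUFAF2, which binds a late intermediate, had 57.1 ± 0.695 and 56.6 ± 1.92 FPKM. NDUFAF3, the partner of NDUFAF4, had 23.9 ± 0.468 and 23.9 ± 1.02 FPKM. NDUFAF6, a further assembly factor, had 2.2 ± 0.0233 and 2.1 ± 0.127 FPKM.

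Summed over the class, assembly factors had 145, 148 and 146 FPKM with the empty vector and 138, 140 and 139 FPKM with LINC00888. The groups did not overlap, and the ratio of the means was 0.949. The class median of -0.10 was negative under every setting tried, from -0.13 to -0.02. Single members did not all keep their sign. By the log2 ratio of transcript sums NDUFAF5 (0.06) and NDUFAF6 (0.35) turned positive, while NDUFAF1 to NDUFAF4 and NDUFAF8 stayed negative.

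NDUFA4 and NDUFA4L2 complete the list. NDUFA4, now placed in complex IV, had 48.7 ± 0.527 and 48.3 ± 3.57 FPKM, with a 95% interval of the log2 fold change from -0.15 to 0.12. NDUFA4L2, its paralog known as a hypoxia-induced gene, was the lowest member, with 1.96, 1.93 and 1.18 FPKM against 1.18, 1.19 and 1.39 FPKM. Empty vector library 3 lay with the LINC00888 libraries (log2 fold change -0.30, adjusted p = 0.262), and without it the log2 fold change was -0.49 (adjusted p = 0.0458). Of the 6 fits with 1 library left out, only that 1 called NDUFA4L2 (adjusted p up to 0.499). Among the 11 other settings 0 called it.

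Other genes of complex I assembly, taken from a list, gave 2 that rose among 14 and 0 that fell; the list's median was -0.06 on the log2 scale. The share called was 14.3%, near the 13.5% of all tested genes. NUBPL, which delivers iron-sulfur clusters to complex I, rose from 2.72 to 3.31 FPKM (adjusted p = 0.0465). DMAC1, a factor for the distal membrane arm, rose from 24.1 to 27.2 FPKM (adjusted p = 0.0492). Of 28 tested genes for mitochondrial RNA synthesis and handling, 0 rose and 4 fell, with a median of -0.02, and the share called was again 14.3%, near that of all genes. TFAM, which packages mitochondrial DNA and starts its transcription, fell from 25.0 to 22.2 FPKM (adjusted p = 0.0258). SLIRP, which stabilises mitochondrial messengers with LRPPRC, fell from 23.8 to 20.0 FPKM (adjusted p = 0.0392).

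FASTK, a form of which is needed for the MT-ND6 messenger, fell from 18.5 to 16.5 FPKM (adjusted p = 0.03), but its log2 fold change turned to 0.016 with transcript sums. HSD17B10, part of mitochondrial RNase P, fell from 78.9 to 69.4 FPKM (adjusted p = 0.0297). All 6 of these calls were lost without any 1 of the 6 libraries, with adjusted p from 0.0554 (TFAM) to 0.136 (NUBPL). Of the 11 other settings, TFAM was called in 9, SLIRP in 8, FASTK and DMAC1 in 7, and HSD17B10 and NUBPL in 6. Among 8 tested regulators of mitochondrial genes 1 fell, again TFAM, and 0 rose. Limma called 0 of 3 supercomplex factors, and 0 had an unadjusted p under 0.05.

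The transcript table listed 149 transcripts of the members, of which 147 were tested. Of these 1 rose and 1 fell, against 0.379% of the 26941 transcripts tested (0.167% rose, 0.212% fell). The groups did not overlap for 19 member transcripts, 11 higher and 8 lower, against 19.9% of all transcripts (10.7% higher, 9.19% lower). NDUFB10-201, the leading transcript of its gene, had 110, 118 and 117 FPKM with the empty vector and 82.9, 86.7 and 81.4 FPKM with LINC00888. It fell, like the gene, with a log2 fold change of -0.46 (SE 0.0464, adjusted p = 0.0375). That call was lost without each of the 6 libraries, under plain moderation and with the replicate block. NDUFC1-211, of a gene for a small membrane arm subunit, was listed at 0 in the 3 empty vector libraries and had 1.18, 1.10 and 1.23 FPKM with LINC00888 (adjusted p = 0.0203). It passed the filter on low values only through the LINC00888 libraries, so its adjusted p is not independent evidence of a rise. Its call was lost without each of the 6 libraries, at a pseudocount of 0.1, with a filter at 1 FPKM and with the block. The leading transcripts of NDUFB4 and NDUFC2 kept the direction of their genes without passing (adjusted p = 0.173 and 0.138).

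Which transcript led was the same in both groups for all 40 members with several transcripts, by the group means, and varied over single libraries in 8. Some transcript values jumped between libraries of a group. NDUFC1-201 had 38.5, 21.1 and 3.91 FPKM with the empty vector, while the gene value of NDUFC1 was 27.96 FPKM with the empty vector and 25.1 FPKM with LINC00888. NDUFS8-210 had 19.3, 17.8 and 15.4 FPKM with the empty vector but 1.10, 17.3 and 0.749 FPKM with LINC00888. Such transcripts overlapped between the groups or rested on 1 library, and they were not read as a change of isoform.

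**Figure D4:**
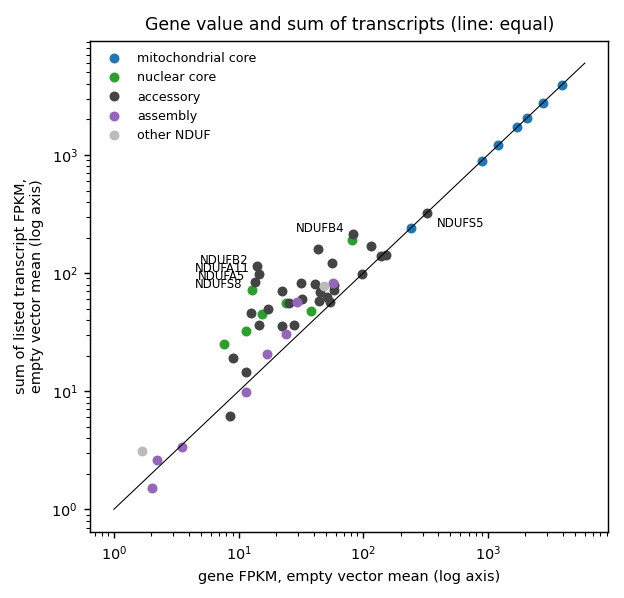
Mean gene FPKM of each member in the empty vector libraries against the sum of its listed transcripts (both axes are log axes; the line marks equal values). The MT-ND genes lie on the line, and NDUFB2, NDUFA11, NDUFA5 and NDUFS8 lie farthest above it.

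The plot of gene values against transcript sums shows a limit on ranking members by level. The transcript sum was over 2 times the gene value for 19 of the 54 members and below it for 5. For NDUFB2, an accessory subunit of the membrane arm, the gene value was 14.2 FPKM and the sum 115 FPKM, a ratio of 8.11. NDUFA11, another membrane arm subunit, had 14.5 and 97.8 FPKM, a ratio of 6.73. NDUFA5, of the matrix arm, had 13.5 and 83.5 FPKM, a ratio of 6.19. These genes were chosen after their values were seen. NDUFB4 stood at 83.4 FPKM by the gene and 215 FPKM by its transcripts, and its direction did not depend on which was used. The sign of the difference between groups differed between gene and transcript sum for 7 members, none of them past the threshold.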

How the data were processed

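Poly(A)-selected, strand-specific libraries were read as paired ends for 150 cycles, per the labels' protocols. The values are FPKM computed by the authors for each library, per the file headers, for genes and for transcripts. FastQC, cutadapt, HISAT2 and StringTie were used, and GRCm38, a mouse build, is named, per the submitters' processing notes; the identifiers are human and the build of the files is not given in the sources used here. Nuclear coordinates are those of the deposited table.

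Features with at least 0.5 FPKM in at least 3 of 6 libraries were kept. Values were taken as log2(FPKM + 0.5), which understates the change of low genes, without rescaling, and groups were compared with limma 3.58.1 in R 4.3.3 (eBayes with trend and robust, two-sided, Benjamini-Hochberg over all features, threshold 0.05). The procedure was tested on simulated data. Sums, shares and ratios were computed from FPKM and carry no test. Overlaps, pseudogenes and transcript ends came from GENCODE 29, promoters from RefSeq, with Python 3.11.15 and pandas 2.3.3; figures used matplotlib 3.10.9.

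The members and lists were chosen with earlier results of these data known. Named were all MT-ND genes, members past the threshold, the 2 highest and 2 lowest by level and by fold change in each nuclear class, the member nearest to the threshold, and list genes past it. A gene that the rule took is counted but not reported here. Alternatives were other pseudocounts, filters, scalings and moderation, the replicate number as a block, each library left out and, chosen after seeing the data, gene values as transcript sums.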

Additional observations from a re-analysis of the deposited data

How the results depend on the processing

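The 3 member calls were the same under pseudocounts of 0.1 and 1, no filter, a filter at 1 FPKM, cyclic loess, quantile normalization, FPKM rescaled to the nuclear sum and plain moderation; median ratio scaling added NDUFAF8. With libraries left out in turn, complex I genes higher ran from 0 to 1 and lower from 1 to 3, and calls over all genes from 536 to 815 (284 to 487 higher, 252 to 329 lower) against 1581 (941 and 640). Transcript calls ran from 22 to 45 against 102, and complex I transcripts from 0 to 1 against 2; the 1 was NDUFS8-210, without LINC00888 library 2 (adjusted p = 0.0229), and neither NDUFB10-201 nor NDUFC1-211 was called. In a fit with a replicate block, 429 genes (229 higher, 200 lower) were called, with the same 3 members, and 0 transcripts, 0 of complex I. Same-numbered libraries did not deviate together (r = 0.0377, 0.0222 and -0.0347), and r for other pairs ran from -0.0816 to 0.0587. With 3 libraries per group this cannot settle whether the numbers pair them. Valuing genes as transcript sums, chosen after seeing the data, gave 431 calls (217 higher, 214 lower), with 0 complex I genes higher and 1 lower (NDUFB10), and turned FASTK to 0.016 (log2, adjusted p = 0.967). Complex I transcript calls were 1 at a pseudocount of 0.1, 1 with a filter at 1 FPKM and 1 with plain moderation. The log2 ratio of summed assembly factors, -0.08, was -0.11 under median ratio scaling, -0.048 under quantile normalization and -0.051 with FPKM rescaled to the nuclear sum. The MT-ND share, LINC00888 minus empty vector, was 0.229 percentage points of all listed FPKM and -0.734 points of mitochondrially encoded FPKM. The causes of these changes were not tested, beyond the smaller samples where libraries were left out. Depth is unknown, so differences in low members such as NDUFAF5 and NDUFAF6 have no counting error attached.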
